A study of Mus musculus with 6 samples.

Results

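The nuclear-encoded genes of the mitochondrial respiratory chain and of ATP synthase were described complex by complex in LSK cells of mouse bone marrow. LSK cells lack lineage markers and carry Sca-1 and c-Kit, and include the blood-forming stem cells and their first descendants. Genes were taken by symbol: Nduf followed by a, b, c, s or v and a number for complex I, Sdha to Sdhd for complex II, symbols starting with Uqcr plus Cyc1 for complex III, symbols starting with Cox4 to Cox8 for complex IV and symbols starting with Atp5 for complex V. Without pseudogene rows, this gave 84 of the 48395 rows of the expression table, with 36, 4, 9, 18 and 17 genes in complexes I to V. Of these, 81 were among the 16739 genes that passed the filter on low counts, and Cox7b2, Cox8b and Cox8c did not pass it.

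Donor marrow came from Mx1Cre; Jak2V617F/+ mice, which carry 1 activated allele of the kinase Jak2 and a Cre recombinase driven by the interferon-inducible Mx1 promoter. After priming with 5-fluorouracil, the cells were infected with a lentivirus carrying either the vector alone or Hmga2, an architectural protein of chromatin. They were then transplanted into C57BL/6 recipients given 2 doses of 550 cGy, and LSK cells were sorted 32 weeks later. There were 3 libraries labelled Jak2VF/+ vector and 3 labelled Jak2VF/+ Hmga2, described as biological replicates. All 6 libraries therefore share the Jak2 allele, the infection, the irradiation and the time, and no library without the Jak2 allele was analysed here. The sources used here do not give the animals' age, the share of infected or recipient cells or whether each library came from 1 mouse, so p-values measure the spread between these libraries.

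In the respiratory chain, complex I passes electrons from NADH, and complex II those from succinate, to ubiquinone. Complex III hands them on to cytochrome c, and complex IV gives them to oxygen. Complexes I, III and IV pump protons across the inner mitochondrial membrane, and complex V, the ATP synthase, lets the protons flow back and makes ATP. Each complex except complex II also needs subunits encoded by mitochondrial DNA. Haematopoietic stem cells at rest are known for low use of respiration, which increases as they divide and differentiate.

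Hmga2 itself was measured at 5.96, 5.04 and 7.03 CPM (counts scaled to a common library size, with TMM factors for library composition) in vector libraries 1 to 3. In labelled Hmga2 1 to 3 it was at 2.63, 6.63 and 5.91 CPM, and so was no higher in the libraries that carry its name (log2 fold change -0.25, SE 0.35, adjusted p = 0.934, edgeR). The sources used here do not say whether the gene's row also counts the introduced copy, and the comparison is given as libraries labelled Hmga2 against vector. Total counts per library were 24818011 to 35471806. All 12 stem and progenitor markers passed the filter, among them Kit, the c-Kit receptor, at 248 to 375 CPM. Of the 12, 9 were above 0 (median log2 fold change 0.16), and they summed to 1409 to 1637 CPM in the vector libraries and to 1784 to 1820 CPM in those labelled Hmga2. The 7 T cell markers summed to at most 1.98 CPM in any library.

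Libraries also differed in genes of other cell types and in Y-linked genes, some across the groups and some along them. Igha, the heavy chain of immunoglobulin A made by plasma cells, was at 8930, 193 and 5469 CPM in vector 1 to 3 and at 236, 2535 and 214 CPM in labelled Hmga2 1 to 3. The 4 Y-linked genes summed to 6.62, 21.5 and 5.44 CPM in vector 1 to 3 and to 192, 5.27 and 127 CPM in labelled Hmga2 1 to 3. The granulocyte list, genes of neutrophils and their precursors, had a median log2 fold change of -1.44, with all 12 members below 0 (49.6% of all genes were) and 9 of 12 lower without overlap between groups (5.88% of all genes were). Its summed level was 4398 to 9340 CPM in the vector libraries and 2990 to 4864 CPM in those labelled Hmga2. Of 13 erythroid markers, 8 were below 0 (median -0.24, with summed levels of 1660 to 2021 CPM in vector libraries and 1241 to 2078 CPM in the others). All 7 tested megakaryocyte markers were above 0 (median 0.31), and the 8 listed summed to 519 to 881 and 647 to 878 CPM. Of 11 tested B and plasma cell markers 9 were below 0 (median -1.79), and the 12 listed summed to 810 to 13910 CPM and 648 to 4642 CPM. The 5 tested neural markers were all below 0 (median -0.94), and the 8 listed summed to 120 to 379 CPM and 112 to 144 CPM. Of 7 tested macrophage and dendritic markers 4 were below 0, and of 7 of stroma and endothelium 2, and none of the markers named in this paragraph was listed at 0 in all libraries. The part of these and of the stem and progenitor markers in the values below was not tested, and in bulk RNA a change in the mix of cells cannot be told apart from less RNA of a gene per cell.

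Nearly all respiratory chain genes had a slightly lower fitted level in the libraries labelled Hmga2, and none passed the test. The log2 fold change, labelled Hmga2 over vector, was below 0 in 78 of 81 genes (96.3%), against 49.6% of all genes tested. Its median over the 81 genes was -0.15, where the median over all genes was 0.00. Complex III had a median of -0.20, complex I of -0.15, complex IV of -0.14, complex II of -0.13 and complex V of -0.12. No test was made between complexes. The 3 genes at or above 0, named after their values were seen, were Cox7a2l at 0.07, Atp5e at 0.02 and Atp5sl at 0.02. Cox7a2l has been linked to supercomplexes of complexes III and IV, and Atp5e is the epsilon subunit of ATP synthase. Atp5sl, now called Dmac2, is no subunit of ATP synthase. The respiratory chain genes were proposed as a group with the direction of such genes in these libraries already known. The count of 78 is therefore no independent evidence of it.

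No respiratory chain gene was called at an adjusted p under 0.05 by edgeR's quasi-likelihood test, which called 0 of 16739 genes (0.0%). DESeq2 called 71 genes (0.425%), and 0 of the 81. At an unadjusted p under 0.05, 4 of the 81 genes were lower (4.94%), where 562 of all genes were (3.36%, and 935 in either direction). Groups did not overlap, with all 3 libraries labelled Hmga2 below all 3 vector libraries, in 8 of the 81 genes (9.88%), against 5.88% of all genes. The 8 were Ndufa10, Ndufc2, Ndufs3, Sdhd, Uqcrc2, Atp5a1, Atp5b and Atp5g3. That count moved with single libraries. Without vector 1 it was 39 of 81 (48.1%, against 15.7% of all genes), and without labelled Hmga2 2 it was 30 of 81 (37.0%, against 11.5%). Without any other library it lay near the share of all genes. It was 8 of 81 (9.88%) without vector 2, vector 3 or labelled Hmga2 1, against 8.997%, 10.2% and 9.41% of all genes. Without labelled Hmga2 3 it was 9 of 81 (11.1%, against 9.48%).

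**Figure D1:**
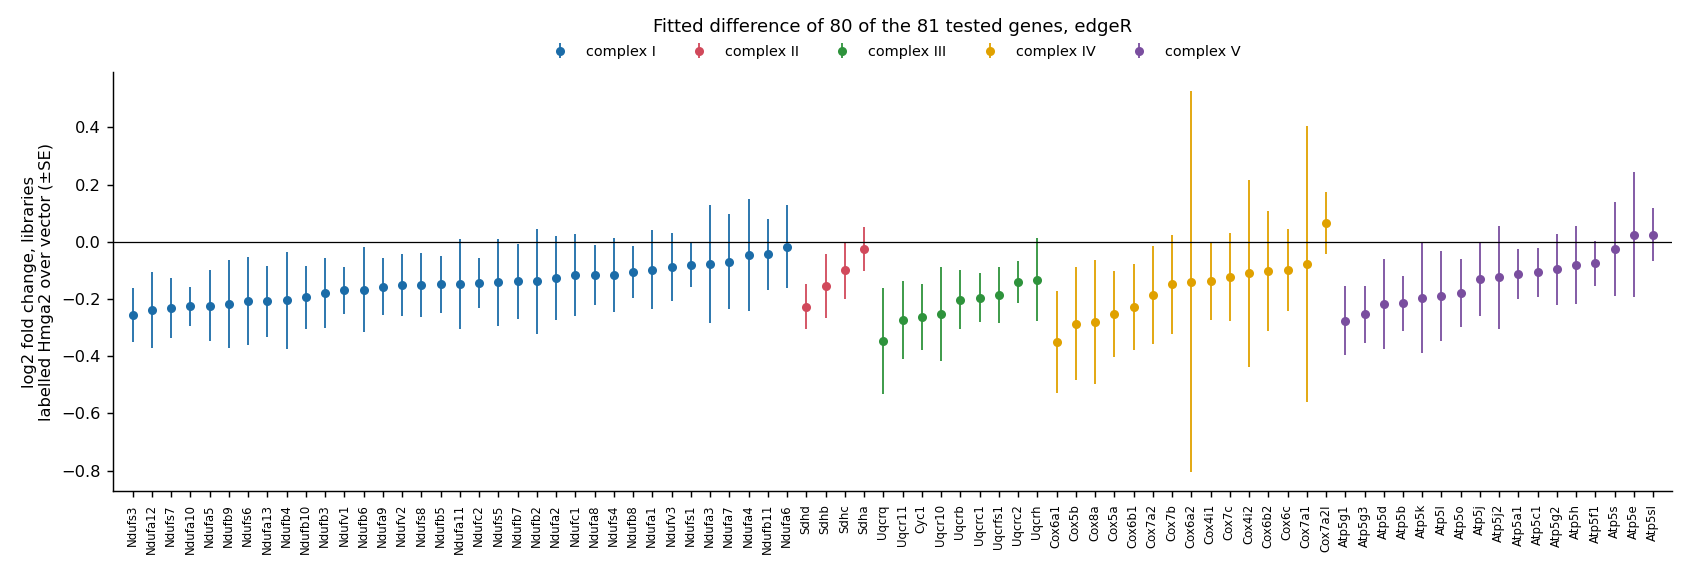
Fitted log2 fold change, libraries labelled Hmga2 over vector, with its SE, for 80 of the 81 tested genes, ordered within complexes I to V. In 77 of the 80 the point lies below 0, the lowest is Cox6a1 at -0.35 and the highest is Cox7a2l at 0.07, and the widest error bars belong to Cox6a2 and Cox7a1, which had few reads.

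The sum over each complex gave the same picture by library. Complex I summed to 2906, 3255 and 3724 CPM in vector 1 to 3 and to 2806, 3265 and 2885 CPM in labelled Hmga2 1 to 3, a mean of 3295 ± 411 (SD, n = 3) against 2985 ± 245 (SD, n = 3). Complex II summed to 740, 829 and 825 CPM against 751, 735 and 741 CPM, and complex III to 1253, 1424 and 1568 CPM against 1150, 1330 and 1197 CPM. Complex IV summed to 1812, 2139 and 2437 CPM against 1618, 2163 and 1853 CPM, and complex V to 4863, 5455 and 5813 CPM against 4597, 5027 and 4841 CPM. In every complex the groups overlapped, since vector 1 lay within the range of the libraries labelled Hmga2. The log2 ratio of the group means was -0.14, -0.10, -0.21, -0.18 and -0.16 for complexes I to V, each smaller in size than the log2 range of the 3 vector libraries.

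The spread between libraries followed single libraries more than the groups. Vector 3 held the highest value of 67 of the 81 genes (82.7%, against 22.4% of all genes tested), and it was the highest in all 9 genes of complex III. Labelled Hmga2 1 held the lowest value of 41 genes (50.6%, against 16.8% of all genes), vector 1 that of 19 and labelled Hmga2 3 that of 16. The median deviation, log2 CPM less the 6-library mean of the gene, was -0.11, 0.08 and 0.28 in vector 1 to 3 and -0.16, 0.07 and -0.11 in labelled Hmga2 1 to 3. Vector 1 thus stood with labelled Hmga2 1 and 3, and labelled Hmga2 2 with vector 2. Without vector 3 the median log2 fold change of the 81 genes was -0.04, with 57 of 81 below 0, and without vector 1 it was -0.25, with 80 of 81 below 0. For complexes I to V, the medians were -0.04, -0.04, -0.14, -0.02 and -0.03 without vector 3 and -0.23, -0.22, -0.29, -0.31 and -0.23 without vector 1. Without labelled Hmga2 2 they were -0.22, -0.16, -0.28, -0.26 and -0.22. Among the 3 libraries rich in Igha, 1 of them labelled Hmga2, the median of the 81 genes was -0.04 with 48 of 81 below 0. Among the other 3, 1 of them vector, it was -0.20 with 79 of 81 below 0. With a term for the Y-linked genes it was -0.06 with 62 of 81 below 0. The Y-linked genes were highest in labelled Hmga2 1 and 3 (192 and 127 CPM), both not rich in Igha. That term therefore goes partly with the label and with the split by Igha.

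**Figure D2:**
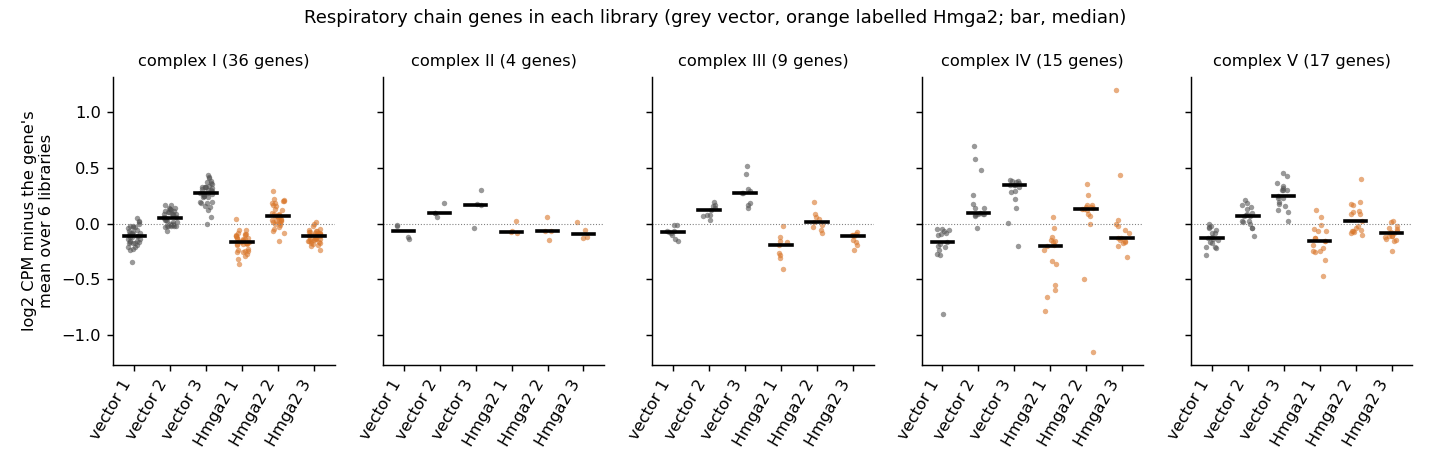
Log2 CPM of each tested gene minus its mean over the 6 libraries (y axis), by library (x axis, grey vector, orange labelled Hmga2) and complex, with a bar at the median. In all 5 complexes vector 3 is the highest library (medians 0.28, 0.17, 0.28, 0.34 and 0.25 in complexes I to V). Labelled Hmga2 2 lies above labelled Hmga2 1 and 3, by little in complex II, where the 3 libraries have medians of -0.07, -0.07 and -0.09.

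Complex I had all 36 genes below 0, with log2 fold changes from -0.26 to -0.02. Of its 7 core subunits in the nuclear genome, which between them hold the flavin and the iron-sulfur clusters, Ndufs3 had the lowest value. Ndufs3, a core subunit of the arm that leads to ubiquinone, was at 84.1, 95.3 and 104 CPM with vector and at 77.3, 81.5 and 78.7 CPM in those labelled Hmga2. The groups did not overlap, and vector 1 lay nearest to the other group (log2 fold change -0.26, SE 0.09, 95% interval -0.48 to -0.04, unadjusted p = 0.0284, adjusted p = 0.855, edgeR). Ndufs7, which carries the last iron-sulfur cluster before ubiquinone, was at 95.9, 107 and 116 CPM against 82.8, 100 and 89.3 CPM, with labelled Hmga2 2 above vector 1 (log2 fold change -0.23, SE 0.10, adjusted p = 0.855).

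The core subunits at the NADH end gave smaller differences than Ndufs3 and Ndufs7. Their log2 fold changes were -0.17 in Ndufv1, -0.15 in Ndufv2 and -0.08 in Ndufs1. Ndufs8 was at -0.15 as well, and no test was made between subunits. Ndufv1, the subunit that binds NADH and the flavin, was at 144, 165 and 160 CPM against 138, 146 and 132 CPM. Its partner Ndufv2 was at 109, 123 and 143 CPM against 108, 119 and 109 CPM, and Ndufs1, the largest core subunit, at 115, 121 and 113 CPM against 116, 101 and 113 CPM. In all 3 genes the groups overlapped, and Ndufs1 did not follow vector 3. Ndufs8, which carries the 2 clusters before that of Ndufs7, was at 84.4, 98.6 and 112 CPM against 84.3, 93.1 and 87.9 CPM.

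The 29 other genes of complex I are mostly of subunits that surround the core and take part in its assembly and stability. Their median log2 fold change was -0.14, where it was -0.15 in the 7 core subunits. By its symbol Ndufa4 (-0.05), a protein now assigned to complex IV, is counted among the 29 and in the sums of complex I. Ndufa10 (chromosome 1, positions 92439010 to 92473860 on the minus strand of mm10) had the smallest p of all 81 genes. It was at 159, 170 and 170 CPM with vector and at 137, 146 and 144 CPM in those labelled Hmga2. The groups did not overlap, and the gap between them was larger than the SD within either group (log2 fold change -0.23, SE 0.07, 95% interval -0.39 to -0.07, unadjusted p = 0.0126, adjusted p = 0.855, edgeR; adjusted p = 0.278, DESeq2). Ndufc2, another accessory subunit, was at 60.5, 67.9 and 63.1 CPM against 53.5, 59.9 and 59.7 CPM, with less than 1 CPM between vector 1 and the nearest library of the other group (log2 fold change -0.15, SE 0.09, adjusted p = 0.855).

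Complex II, the only complex with no mitochondrially encoded subunit, had 4 genes below 0, from -0.23 to -0.02. Sdha, which carries the flavin and oxidises succinate, was at 338, 366 and 332 CPM against 347, 326 and 345 CPM, with vector 3 below labelled Hmga2 1 and 3. Sdhb, the iron-sulfur subunit, was at 124, 142 and 167 CPM against 128, 130 and 131 CPM, where the 3 libraries labelled Hmga2 lay within the vector range (log2 fold change -0.15, SE 0.11, adjusted p = 0.863). Sdhc, 1 of the 2 membrane anchors, was at 111, 128 and 136 CPM against 114, 125 and 110 CPM (log2 fold change -0.10, SE 0.10, adjusted p = 0.894). The other anchor, Sdhd (chromosome 9, positions 50596357 to 50603812 on the minus strand of mm10), was at 168, 193 and 190 CPM against 161, 154 and 156 CPM. Sdhd was the only gene of complex II whose groups did not overlap (log2 fold change -0.23, SE 0.08, 95% interval -0.41 to -0.04, unadjusted p = 0.0227, adjusted p = 0.855, edgeR; adjusted p = 0.45, DESeq2).

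All 9 genes of complex III were below 0, from -0.35 to -0.13. Cyc1, which encodes cytochrome c1, the subunit that meets cytochrome c, was at 166, 202 and 212 CPM against 145, 172 and 167 CPM. Vector 1 lay below the 2 higher libraries labelled Hmga2, so the groups overlapped (log2 fold change -0.26, SE 0.12, unadjusted p = 0.0568, adjusted p = 0.855, edgeR). Uqcrfs1, the Rieske iron-sulfur protein, was at 105, 123 and 125 CPM against 98.6, 113 and 97.7 CPM.

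The 2 core proteins of complex III, Uqcrc1 and Uqcrc2, face the matrix. Uqcrc1 was at 267, 298 and 303 CPM against 237, 267 and 254 CPM, with vector 1 and labelled Hmga2 2 level with each other (log2 fold change -0.20, SE 0.09, adjusted p = 0.855). Uqcrc2 was at 209, 222 and 232 CPM against 208, 199 and 195 CPM, with no overlap but under 2 CPM between the nearest libraries (log2 fold change -0.14, SE 0.07, adjusted p = 0.855). Uqcr11, a small membrane subunit, was at 102, 121 and 133 CPM against 86.7, 114 and 94.1 CPM (log2 fold change -0.27, SE 0.14, adjusted p = 0.855), again with labelled Hmga2 2 above vector 1.

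Complex IV, cytochrome c oxidase, had 14 of 15 tested genes below 0, from -0.35 to 0.07, and no gene whose groups did not overlap. Its catalytic centre is encoded by mitochondrial DNA, and the nuclear subunits surround and regulate it. Cox5a and Cox5b, subunits on the matrix side, were at 170, 192 and 238 CPM against 142, 181 and 181 CPM and at 148, 170 and 199 CPM against 102, 171 and 151 CPM. Cox4i1, a regulatory subunit that binds ATP, was at 277, 335 and 385 CPM against 285, 335 and 287 CPM. In these genes vector 3 was the highest library, and labelled Hmga2 1 was the lowest in Cox5a and Cox5b, but not in Cox4i1, where vector 1 was.

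The 3 genes of complex IV with the smallest p were Cox6a1, Cox5a and Cox6b1. Cox6a1, a subunit of the membrane part, was at 167, 209 and 222 CPM against 119, 183 and 168 CPM, and its log2 fold change of -0.35 (SE 0.18, 95% interval -0.77 to 0.07, adjusted p = 0.855) was the lowest of the 81. Labelled Hmga2 1 was its lowest library, while vector 1 and labelled Hmga2 3 were level with each other. Cox5a gave -0.25 (SE 0.15, adjusted p = 0.855), and Cox6b1, a subunit on the side where cytochrome c docks, -0.23 (SE 0.15, adjusted p = 0.855), at 178, 201 and 241 CPM against 151, 208 and 172 CPM.

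Complex V had 15 of 17 genes below 0, from -0.28 to 0.02. Atp5b, the beta subunit that holds the catalytic sites for ATP synthesis, was the most abundant of the 81 genes, at 1476, 1657 and 1648 CPM with vector and at 1326, 1380 and 1412 CPM in those labelled Hmga2. The groups did not overlap (log2 fold change -0.22, SE 0.10, 95% interval -0.44 to 0.01, unadjusted p = 0.058, adjusted p = 0.855, edgeR). Its partner in the F1 head, the alpha subunit Atp5a1, was at 1174, 1276 and 1289 CPM against 1140, 1148 and 1167 CPM, with under 10 CPM between the nearest libraries (log2 fold change -0.11, SE 0.09, adjusted p = 0.865). Atp5c1, the gamma subunit of the rotating stalk, was at 272, 303 and 326 CPM against 279, 284 and 273 CPM, so that its groups overlapped.

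Atp5d, the delta subunit at the foot of the rotating stalk, was at 230, 256 and 279 CPM against 169, 253 and 236 CPM. Atp5o, the subunit that ties the head to the outer stalk, was at 201, 231 and 270 CPM against 200.4, 223 and 197 CPM. The groups overlapped in both genes.

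The ring of c subunits, which the protons turn, is made from 3 genes that encode the same mature protein. Atp5g3 (chromosome 2, positions 73908447 to 73911326 on the minus strand of mm10) was at 240, 280 and 289 CPM against 207, 233 and 239 CPM. Its groups did not overlap, with about 1 CPM between vector 1 and labelled Hmga2 3 (log2 fold change -0.25, SE 0.10, 95% interval -0.49 to -0.02, unadjusted p = 0.0385, adjusted p = 0.855, edgeR). Atp5g1 was at 158, 201 and 215 CPM against 152, 165 and 157 CPM (log2 fold change -0.28, SE 0.12, adjusted p = 0.855), and Atp5g2 at 187, 197 and 223 CPM against 164, 220 and 184 CPM. As CPM per kb of transcript, Atp5g2 made up 39.7% ± 1.65 (SD, n = 3) of the 3 genes in the vector libraries and 42.3% ± 2.56 (SD, n = 3) in the others. Atp5g3 made up 32.7% ± 0.753 against 31.4% ± 1.67, and Atp5g1 the rest, and the libraries of the 2 groups overlapped in the share of each gene. These shares rest on the shortest principal transcript of each gene, and their order moves with that choice. Mean CPM per kb over the 6 libraries was 293 in Atp5g1, 444 in Atp5g2 and 347 in Atp5g3 with the shortest. With the longest it was 37.0, 268 and 343.

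**Figure D3:**
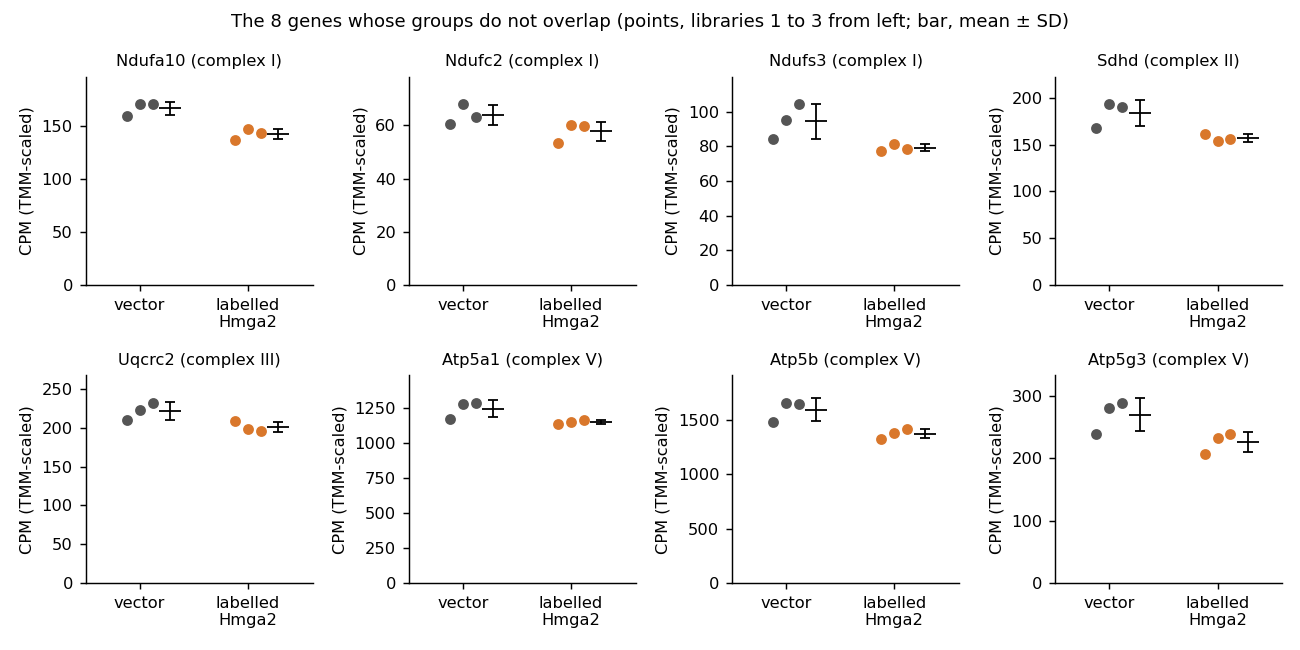
TMM-scaled CPM (y axis, from 0) of the 8 genes whose groups did not overlap, with libraries 1 to 3 of each group from left to right and the mean ± SD beside them. In Ndufa10, Sdhd, Atp5a1 and Atp5b the nearest libraries of the 2 groups are over 6 CPM apart, while in Ndufc2 they are under 1 CPM and in Atp5g3 about 1 CPM apart. These gaps are not scaled to the level of the gene.

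Levels can be compared between genes only per length, so mean CPM over the 6 libraries was divided by the length of the transcript in kb. By this measure the median was 98.1 CPM per kb in complex I, 119 in complex II, 164 in complex III, 181 in complex IV and 255 in complex V. Atp5b was highest of all at 774 CPM per kb, followed by Atp5a1 at 485. In complex I the level ran from 29.1 in Ndufs4, an accessory subunit of the NADH arm, to 417 in Ndufa4, a protein first assigned to complex I and now to complex IV. Without Ndufa4, the highest gene of complex I was Ndufb8 at 189, named after its value was seen. In complex II it ran from 38.1 in Sdhc to 138 in Sdhd, and in complex III from 80.9 in Uqcrfs1 to 333 in Uqcrh, the hinge protein. Complex IV reached 428 in Cox8a and 426 in Cox4i1. These levels move with the transcript chosen: with the longest principal transcript in place of the shortest, Ndufa4 was at 309 and Atp5g1 at 37.0 instead of 293.

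**Figure D4:**
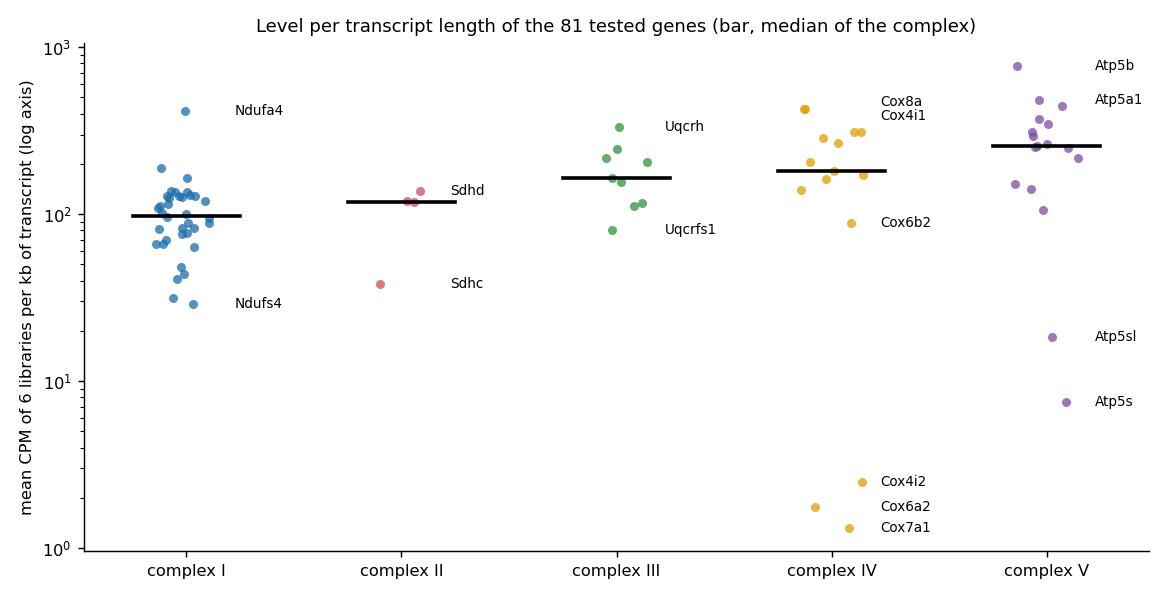
Mean CPM over 6 libraries per kb of transcript (log axis) of the 81 tested genes by complex, with a bar at the median of the complex. Medians lie between 98.1 and 255, Atp5b is highest at 774, and 3 isoforms of complex IV lie below 3 CPM per kb.

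Isoforms known from other tissues were at a low level in these cells, with 1 exception. Cox4i2, a lung isoform, was at 1.24 to 2.42 CPM, Cox6a2, a heart and muscle isoform, at 0.423 to 2.42 CPM, and Cox7a1, also of heart and muscle, at 0.252 to 0.769 CPM. Per kb these made up 0.576% ± 0.037, 0.524% ± 0.133 and 0.764% ± 0.341 (SD, n = 3) of the pair with Cox4i1, Cox6a1 and Cox7a2 in the vector libraries. Cox7b2, Cox8b and Cox8c were listed at 0 in every library. For counting error alone a count of 0 allows up to 3 reads (a 95% limit), or 0.0846 to 0.121 CPM, but rows of genes that every cell uses were listed at 0 in the same table, so the 0 may not be a level. The exception was Cox6b2, known as the testis isoform, at 36.3, 56.8 and 35.3 CPM with vector and at 42.3, 44.4 and 33.0 CPM in those labelled Hmga2. It made up 21.6% ± 5.50 (SD, n = 3) of the pair with Cox6b1 in the vector libraries and 23.2% ± 3.55 in the others, and its groups overlapped.

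Atp5s and Atp5sl, whose symbols place them with complex V although neither is a structural subunit, were the lowest of that complex at 7.47 and 18.4 CPM per kb. The 6 pseudogene rows that were left out reached at most 14.9 CPM (Atp5l-ps1), beside 47.9 to 71.8 CPM of Atp5l, a small subunit of the membrane part.

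Mitochondrially encoded subunits could not be set beside the nuclear ones. The 13 rows, 7 of complex I, 1 of complex III, 3 of complex IV and 2 of complex V, were listed at 0 in all 6 libraries. Since every cell uses these genes, the 0 is not a level.

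Genes that serve the chain were described from lists, with 0 genes called in any of them by edgeR. Of 17 tested genes of electron carriers 15 were below 0 (median -0.09). Cycs, cytochrome c itself, was at 87.9, 109 and 127 CPM against 91.9, 79.1 and 87.9 CPM (log2 fold change -0.32, SE 0.14, adjusted p = 0.855), with vector 1 inside the range of the other group. Assembly factors were mostly below 0 as well: 11 of 14 for complex I (median -0.13), 4 of 4 for complex II (-0.13), 4 of 6 for complex III (-0.04), 17 of 24 for complex IV (-0.08) and 3 of 3 for complex V (-0.08). Of 18 genes of the citric acid cycle and pyruvate dehydrogenase 17 were below 0 (median -0.12), among them Cs, citrate synthase, at 306, 323 and 307 CPM against 278, 253 and 283 CPM (log2 fold change -0.20, SE 0.08, adjusted p = 0.855). All 77 mitochondrial ribosomal protein genes, taken by their Mrpl and Mrps symbols after the other values were seen, were below 0 with the same pull of vector 3 (median -0.17, and 0.26 above the gene's mean in vector 3). Of 21 tested regulators of mitochondrial biogenesis 10 were below 0, and their median was 0.00. Gabpb1, a subunit of the factor GABP, was at 72.9, 66.2 and 73.6 CPM against 83.6, 85.9 and 79.3 CPM (log2 fold change 0.23, SE 0.08, adjusted p = 0.855).

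The deviation of 4 of the 6 libraries went with transcript length among these genes. The tested respiratory chain genes have short transcripts, with a median of 732 bases (315 to 3171), where all tested genes had a median of 2340 bases. In the 28 genes of up to 600 bases the median deviation of vector 3 from the gene's mean was 0.33 on the log2 scale, and in the 16 genes over 1500 bases it was 0.15. For labelled Hmga2 2 the same medians were 0.13 and -0.04, for vector 1 -0.17 and -0.06, and for labelled Hmga2 1 -0.20 and -0.08. Vector 2, at 0.07 and 0.09, and labelled Hmga2 3, at -0.12 and -0.09, changed little with length (Pearson -0.01 and 0.05, Spearman 0.18 and 0.20). Across the 81 genes, which share libraries and are not replicates, the correlation of log2 length with the deviation was -0.53 in vector 3 (Pearson; Spearman -0.57) and 0.45 in vector 1 (Spearman 0.52). With the longest transcripts these were -0.40 (Spearman -0.51) and 0.38 (Spearman 0.43). The log2 fold change itself had little relation to length among the 81 genes (Pearson 0.14, Spearman 0.01). It did have one among the 8133 other genes with a mean of at least 20 CPM (Pearson 0.31, Spearman 0.42). In those genes the deviation of labelled Hmga2 3 also went with length (Pearson 0.27, Spearman 0.48).

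Other genes of the same length showed part of the same pattern. Among genes outside the respiratory chain with a mean of at least 20 CPM, vector 3 had a median deviation of 0.21 in the 404 genes of up to 600 bases and of -0.03 in the 6288 genes over 1500 bases. The share below 0 was 78.0% and the median log2 fold change -0.06 in the first class, against 96.4% (27 of 28) and -0.13 in respiratory chain genes of that length. Over 1500 bases it was 43.3% and 0.02, against 15 of 16 respiratory chain genes and -0.11. With the length relation of each library taken out as an offset in the edgeR fit, the median of the 81 genes was -0.09, with 74 of 81 below 0 and 0 called, and complex III had the lowest median at -0.16.

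**Figure D5:**
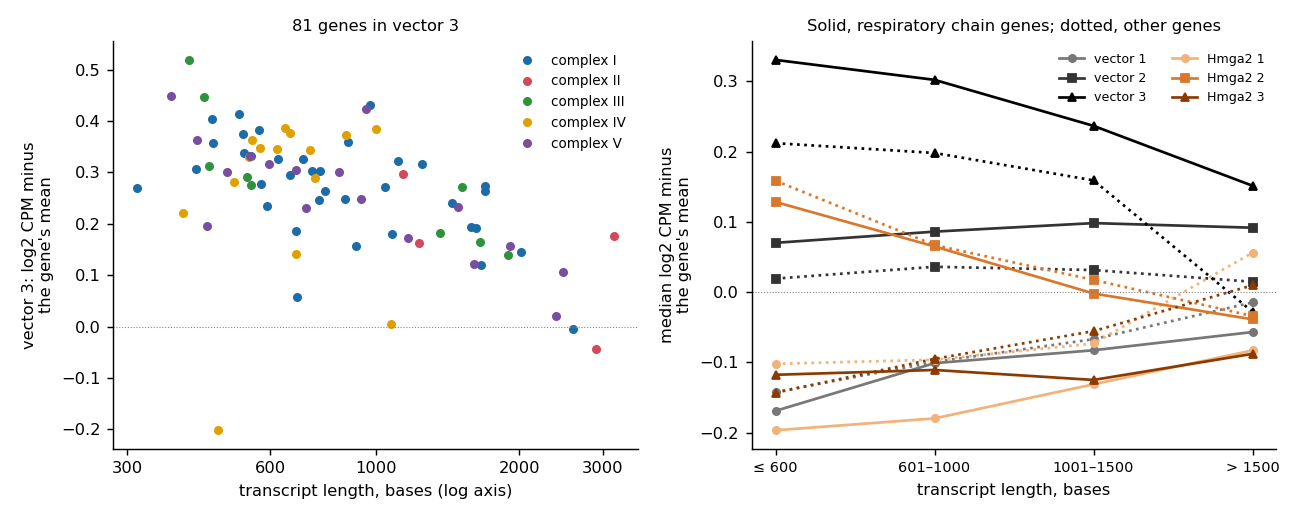
Left, transcript length (log axis) against log2 CPM in vector 3 minus the gene's mean, for the 81 genes coloured by complex. Right, the median of this deviation by length class in each library, solid for respiratory chain genes and dotted for other genes of at least 20 CPM; vector 3 goes from 0.33 to 0.15 in respiratory chain genes and from 0.21 to -0.03 in other genes.

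The 84 genes lie apart in the genome, on 19 chromosomes with at most 9 on any of them (chromosome 7), and their gene models in GENCODE M21 overlap another model in 36 cases. Atp5j, a stalk subunit of ATP synthase, shares 701 bases on the opposite strand with Gabpa, a regulator in the list above, and Uqcrc2 shares 794 with Pdzd9. These overlaps are of whole gene spans, introns included, and run from 4 bases (Ndufa3 with Tfpt) to 14695 (Ndufs1 with Ino80dos). Some are on the same strand, as that of Cox4i1 with Gm20388 over 5986 bases. The sources used here do not say whether counting used the strand, so reads from shared bases may not have been told apart. Reads of the many processed copies of these genes may also be split between rows.

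Promoters were read for letters of factors known to serve respiratory chain genes. RefSeq promoters (GRCm38.p6, 250 bases before to 50 after the start) were matched to 69 of the 84 genes, 3 of them under a newer symbol. On either strand, GCATGCGC, the letters of NRF1, was found in 10 of 69 (14.5%), against 5.17% of other tested genes and 2.81% of all promoters. AAGATGGC, the letters of YY1, was found in 11 (15.9%, against 4.61% and 2.86%), and CCGGAAG, the letters of ETS factors such as GABPA, in 16 (23.2%, against 17.8% and 9.18%). CCAAT, bound by NF-Y, was found in 30 (43.5%, against 38.4% and 37.7%), TGACGTCA, the cyclic AMP response element, in 4 (5.80%, against 3.12% and 1.84%), and GGGCGG, the letters of Sp1, in 27 (39.1%, against 62.9% and 36.0%). The ETS and YY1 letters can share bases, which they did in 0 of the 69 promoters. A match describes the letters and is not a measured site.

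The YY1 letters lay at a like position in complex I. In its 7 promoters that hold them, Ndufa3, Ndufa9, Ndufb8, Ndufc1, Ndufs4, Ndufs6 and Ndufs7, they began 22 to 38 bases after the RefSeq start, on the side of the transcript. In the 4 of complex V they began between 88 bases before and 23 after it, and in other tested genes 50.8% of 504 matches began at or after the start. Complexes II, III and IV had 0 such matches in 3, 5 and 13 promoters. The median log2 fold change was -0.17 in the 10 tested genes with the NRF1 letters and -0.15 in the 57 without, and -0.12 in the 11 with the YY1 letters and -0.16 in the 56 without, and these medians were not tested against each other.

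The 5 promoters below, picked after the matches were seen so that each kind of letters is shown, run from 170 bases before the RefSeq start to at most 30 after it, in the direction of transcription, with matches in capitals. Ndufa3 (chr7:3617203-3617402, plus strand) holds the Sp1 letters and, at its end, the YY1 letters of complex I. Ndufa11 (chr17:56717592-56717786, plus strand) holds the response element and the NRF1 letters on both strands. Uqcr11 (chr10:80406801-80406991, minus strand) holds ETS letters and, at the start, NRF1 letters. Cox6a1 (chr5:115348952-115349128, minus strand), the gene with the lowest log2 fold change, holds NRF1, Sp1, CCAAT and ETS letters. Atp5g3 (chr2:73911297-73911496, minus strand), whose groups did not overlap, holds CCAAT alone.
Ndufa3: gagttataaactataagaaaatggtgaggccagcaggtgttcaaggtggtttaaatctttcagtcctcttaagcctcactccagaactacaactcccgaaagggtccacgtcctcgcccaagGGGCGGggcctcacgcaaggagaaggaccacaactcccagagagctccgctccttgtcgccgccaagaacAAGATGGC
Ndufa11: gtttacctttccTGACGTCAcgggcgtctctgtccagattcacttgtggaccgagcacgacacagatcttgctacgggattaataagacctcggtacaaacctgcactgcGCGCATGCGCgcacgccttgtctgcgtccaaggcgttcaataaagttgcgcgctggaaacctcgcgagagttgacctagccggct
Uqcr11: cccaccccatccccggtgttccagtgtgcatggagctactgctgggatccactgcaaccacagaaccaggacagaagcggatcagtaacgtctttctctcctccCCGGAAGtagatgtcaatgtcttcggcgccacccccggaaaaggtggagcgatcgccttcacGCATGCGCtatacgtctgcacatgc
Cox6a1: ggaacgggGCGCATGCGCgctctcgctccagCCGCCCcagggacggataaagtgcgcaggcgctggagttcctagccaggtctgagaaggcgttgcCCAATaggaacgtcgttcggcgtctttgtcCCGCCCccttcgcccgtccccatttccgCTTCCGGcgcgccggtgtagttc
Atp5g3: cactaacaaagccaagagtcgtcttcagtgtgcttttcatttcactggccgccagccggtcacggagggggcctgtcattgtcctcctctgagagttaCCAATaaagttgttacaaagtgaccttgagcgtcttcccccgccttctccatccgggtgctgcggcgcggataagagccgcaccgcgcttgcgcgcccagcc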

How the data were processed

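RNA of 6 LSK samples was sequenced, 3 labelled vector and 3 labelled Hmga2, with groups and replicate numbers taken from the sample titles. The authors deposited expected counts (estimated counts per gene symbol), judged from the values: none is negative, 67.3% to 70.1% of values above 0 are whole within 1e-06, and totals differ. The submitters' processing notes name Partek 3.0, Bowtie2 and mm10; the sources used here do not give the counter, annotation or strand setting. Such counts share reads between similar genes by a model.

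Counts were rounded and all genes fitted in edgeR 4.0.16 (R 4.3.3), with filterByExpr, TMM, the quasi-likelihood F test on group alone, Benjamini-Hochberg adjustment over all 16739 genes, threshold 0.05. Fold changes are log2 ratios, labelled Hmga2 over vector, with SE from the F statistic. DESeq2 1.42.0 was the other tool. Levels are CPM scaled by TMM factors, and deviations are log2 CPM with a prior count of 2 minus the gene's mean. At these totals 3 reads are 0.0846 to 0.121 CPM, a floor that covers only counting error. The steps were tested on simulated counts, and no 2 replicates agreed within sampling noise (chi-square over its degrees of freedom 24.7 to 56.9).

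Transcript lengths and positions come from GENCODE M21 on the same build, as the shortest principal coding transcript, after a first look had used the longest one; lengths, length classes and the length offset were chosen after seeing the data. Atp5sl was matched through its RefSeq name Dmac2. Promoter sequences are from RefSeq, GRCm38.p6. No group of genes was tested as a set. For 1 counted gene the values are not reported here.

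Genes were named by rule: a list of core subunits and one of tissue isoforms, the 3 smallest p-values, highest and lowest level per kb of each complex, and every gene without overlap, with at most 3 genes by smallest p from each other list; exceptions are marked in the text, and Kit, Igha and the genes named for overlapping models, promoter letters or pseudogene copies also fall outside it. The genes and lists were chosen with earlier results of these data known. Alternatives were a replicate block, other size factors, no count filter, DESeq2, each library left out, immunoglobulin genes left out, terms or strata for libraries rich in Igha (above 1000 CPM), a term for Y-linked genes and genes under 10 CPM left out, with the length offsets added after seeing the data.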

Additional observations from a re-analysis of the deposited data

How the results depend on the processing

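The median log2 fold change of each complex and of all 81 genes stayed below 0 in 113 of 114 recomputations. The exception was complex IV in the 3 libraries rich in Igha, at 0.0157 (log2 ratio of its summed CPM 0.0261, and Sdhc at 0.0229); this leaves 1 library labelled Hmga2 against 2 vector libraries. The log2 fold changes of the 18 respiratory chain genes given in the results with an SE were below 0 in 323 of 324. These 18 were picked for small p or for lack of overlap in the same libraries, so that count is no independent evidence. Of all 81 genes, 57 (without vector 3) to 80 (without vector 1) were below 0 with single libraries left out. With a term for the Y-linked genes 62 were. Without each library in turn the medians of complexes I to V ran from -0.233, -0.219, -0.286, -0.311 and -0.227 (each without vector 1) to -0.036, -0.0373, -0.136, -0.0228 and -0.0258 (each without vector 3). With at least 2 libraries in each group, the count of genes without overlap ran from 8 to 39. It was 39 without vector 1 and 30 without labelled Hmga2 2, against 15.7% and 11.5% of all genes. Without any other single library it was 8 or 9, near the share of all genes. The strata by Igha each leave 1 library in a group, and they went opposite ways. In the 3 libraries not rich in Igha, 1 of them vector, it was 77 of 81 (95.1%, against 37.1% of all genes). In the 3 rich in Igha it was 12 of 81 (14.8%, against 27.9%). The number of genes called went from 0 to 1 without the count filter and to 71 with DESeq2, and 0 respiratory chain genes were called in any alternative. The 2 length offsets, added after seeing the data, gave medians of -0.09 for all 81 genes with either transcript. With library totals in place of TMM the median was -0.12, where that of all genes was 0.03.

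Samples with the same number did not deviate together (correlations over genes -0.21, -0.50 and -0.26), so the numbers were not taken to pair them. With the replicate block the median of the 81 genes was -0.14, with 77 of 81 below 0 and 0 genes called. Counts of genes without overlap and summed CPM have no value under the replicate block, DESeq2, the added terms, the count filter or the length offsets. Depth limits Cox4i2, Cox6a2 and Cox7a1 most, with SEs of 0.33, 0.67 and 0.48.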
